A study of Homo sapiens with 2 samples.

Results

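Probe sets in the brighter part of the signal range that carry no gene symbol were examined on U133 Plus 2.0 arrays of Affymetrix, on which a set of short oligonucleotides (a probe set) reports 1 or more transcripts. The members were chosen by annotation and brightness: no symbol in the platform annotation used here, and a mean signal over both arrays at or above 23.9, the median of such means over all probe sets other than the manufacturer's AFFX controls. This gave 2958 members among 11721 probe sets without a symbol and 54613 non-control probe sets in all. Of 1 array per group, the first carried RNA of Seg-1 cells that had received negative control siRNA, which matches no known gene. The other carried RNA of Seg-1 cells given FGF-AS siRNA, directed at the RNA transcribed opposite to FGF2, the fibroblast growth factor 2 gene. Seg-1 is an adherent line once taken for esophageal and now, per the labels' protocols, known to be the lung line H460. Both cultures received siRNA at a final concentration between 25 and 200 nM, were harvested after 72 hours, and had no untransfected counterpart. With 1 array per group no difference could be tested against variation between cultures, and no p-value is given. In RNA from a whole culture, fewer cells that express a transcript and less of it per cell cannot be told apart.

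The array was designed from expressed sequences, among them many expressed sequence tags, which are single reads of cDNA clones. A probe set built on such a tag can report a long non-coding RNA, an antisense transcript, an intron retained in an immature message, or an alternative end of a known gene. An entry missing from an annotation table does not show that a probe set matches no gene. The members are therefore given by probe set identifier only, and no gene name, position or sequence was assigned to them.

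The labels were checked first. Both probe sets of NUDT6, from which the antisense RNA is made, read lower with the siRNA directed at it (376.9 to 104.5 and 267 to 77.8). FGF2, the sense partner, read 676.2 and 911.8 on 204422_s_at and 326.7 and 338.8 on 204421_s_at. The epithelial keratins KRT8 and KRT18 read between 3475.7 and 10152.5. NKX2-1, a lung lineage factor (24.9 and 11.8), AGER, a marker of alveolar type I cells (1.1 and 5.6), and CDH1, the epithelial cadherin (0.9 and 18.4), had mean signals below the minimum, as did 3 of 6 fibroblast markers and 2 of the 4 leukocyte markers found in the table. The summed signals of the 9 lung epithelium markers were 1553.5 on the control and 1585 on the FGF-AS siRNA array. Its brightest markers went opposite ways, HOPX at 766.8 and 519.4 and LPCAT1 at 545.6 and 778.5. The 1 lung epithelium marker past 2-fold was the dim SFTPC, at 14.7 and 59.1, which adds little to these sums. The sums of the 6 fibroblast markers were 545 and 340.1, with COL3A1, a fibrillar collagen gene, at 316.4 and 104.6. The others differed less in signal: COL1A1 read 164.3 and 151.6, DCN 42.5 and 31, and LUM 8.1 and 6.2. COL1A2 (6.4 and 17.9) and PDGFRB (7.3 and 28.8) read higher with FGF-AS siRNA. The sums of the 4 leukocyte markers were 544.7 and 333.2, with LCP1, an actin-bundling protein gene, at 486.9 and 293.5. PTPRC, the pan-leukocyte marker, read 0.5 and 19. The part of other cell types in the members' ratios was not tested.

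The members were dim as a group. Of all probe sets without a symbol, 25.2% reached the signal minimum, and of the 41091 with 1 symbol 56.5% did. The median of the members' mean signals was 51.0, with quartiles at 32.2 and 147, and 2022 members (68.4%) lay under 100. The 23222 single-symbol probe sets at or above the same minimum had a median of 162. At the bright end, 189 members had a mean signal of 1000 or more and 26 of 10000 or more. As signal chose the members, these values describe them and are not a finding. Just inside the minimum lay 1562794_at (30.1 and 17.6 on the control and FGF-AS siRNA arrays), 208889_s_at (19.1 and 28.6) and 215390_at (14.6 and 33.1), all with a mean of 23.85. Just outside lay 1563076_x_at (31.7 and 15.9), 1563345_at (39.9 and 7.7) and 213776_at (20.1 and 27.5), all with a mean of 23.8.

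The 10 brightest members read nearly alike on the arrays. The brightest, 200017_at, read 18344.6 on the control and 17531.3 on the FGF-AS siRNA array. The next, 221798_x_at, read 18063.9 and 17214.8. The third, 206559_x_at, read 17295.7 and 17886.4. All 10 log2 ratios of FGF-AS siRNA over control lay between -0.16 (200748_s_at, 17585.2 to 15778) and 0.13 (212826_s_at, 14065.6 to 15387.6). The other 5 were 208856_x_at, 200651_at, 213801_x_at, 211720_x_at and 211972_x_at. Over the 26 members at 10000 or more, log2 ratios ran from -0.27 to 0.17. These were the brightest members, and their small spread says little about dimmer members. How near such signals lie to the top of the range of the arrays was not tested.

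Most members differed little between the siRNAs. The log2 ratio was taken after adding 6.1 (25% of all signals lie below it) to both signals, which understates differences of dim probe sets. Of the 2958 members, 2186 (73.9%) lay within 1.5-fold. Their median log2 ratio was -0.08 with quartiles at -0.44 and 0.20, the SD across members was 0.59, and 1229 members (41.6%) were above 0. The median lay at 0.03 under quantile normalization and 0.01 under loess, so the sign of this small common shift depends on how the arrays are scaled.

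Past 2-fold, members that read lower with FGF-AS siRNA outnumbered those that read higher. The higher ones numbered 67 (2.27%) and the lower ones 185 (6.25%). Among all 27307 probe sets at or above the minimum, whatever their annotation, 1.93% passed 2-fold as higher and 5.41% as lower, 7.35% in either direction. The members' shares were thus close to those of the arrays as a whole, and lower calls were the more frequent in both. Higher members made up 26.6% of the members past 2-fold, but 40.8% under quantile normalization, 38.8% under loess and 32.9% under median centring.

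Ratios spread less with rising signal, so single-symbol probe sets were compared at equal signal. The members were divided by mean signal into 10 bins of nearly equal number, and single-symbol probe sets were weighted so that each bin counted as it did among the members. After this weighting their median signal was 51.1. At equal signal, 3.10% of single-symbol probe sets passed 2-fold as higher and 7.38% as lower. In either direction this was 10.5%, against 8.52% of members. The weighted SD of the log2 ratio was 0.64, against 0.59 for members. The weighted median was -0.09, against -0.08, and 42.4% were above 0, against 41.6%.

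The smaller share among members depended on which probe sets stood for the named genes. With the brightest probe set of each gene only, 8.61% of single-symbol probe sets passed 2-fold at equal signal, and their SD was 0.60. This share is nearly that of the members (8.52%). Members carry no symbol and could not be reduced to 1 per gene, so only the single-symbol side was reduced. The spread among members was thus below that of named transcripts at equal signal when every probe set counted, and nearly equal when 1 per gene did. Direction went apart with that choice. With 1 per gene the single-symbol median was -0.04 and 46.8% were above 0, against -0.08 and 41.6% for members.

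**Figure D1:**
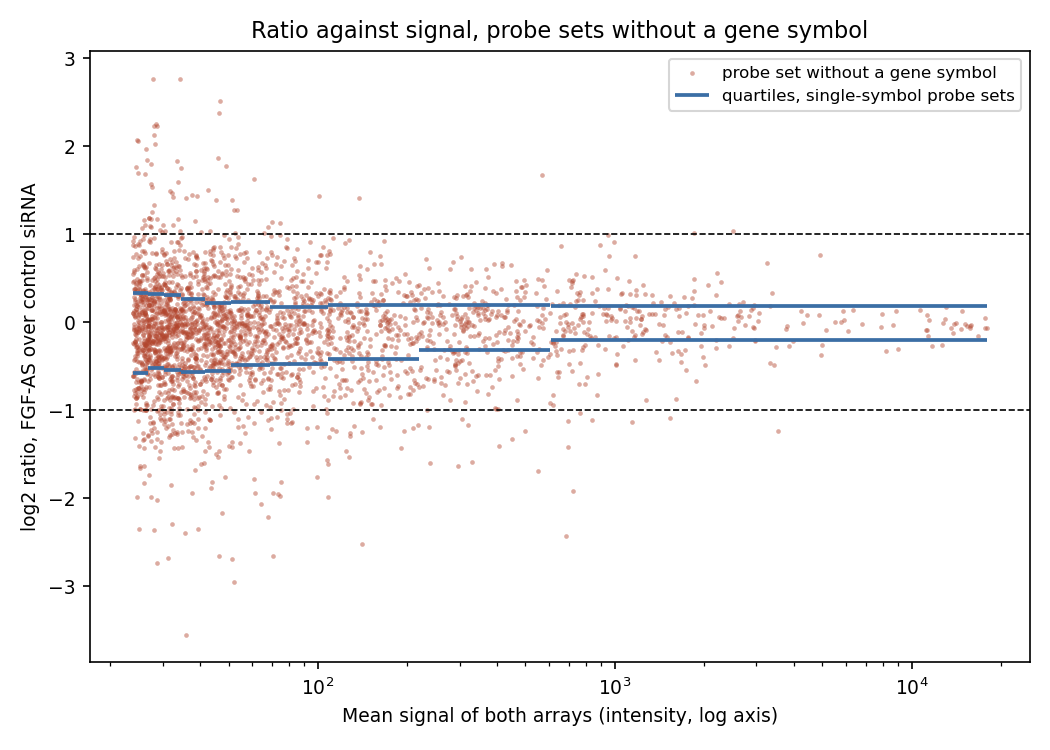
Log2 ratio of FGF-AS siRNA over negative control siRNA (vertical axis) against the mean signal of both arrays (horizontal log axis) for the 2958 members without a gene symbol, 1 point each. Blue lines are the quartiles of single-symbol probe sets in each of 10 signal bins, and dashed lines mark 2-fold. The cloud narrows with signal, and most points beyond 2-fold are dim.

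Bin by bin, the difference lay at the dim end. In the dimmest bin (mean signals from 23.9 to 26.8) 10 of 295 members were past 2-fold higher and 15 past it lower, 8.47% in all. Of the 890 single-symbol probe sets of that bin, 18.8% passed 2-fold. In the next bin (26.9 to 30.3) the order was the other way, with 15.6% of members against 14.3%. The SD of the log2 ratio in these bins was 0.65 and 0.72 for members, against 0.82 and 0.73. Over all 10 bins the members' SD was below that of single-symbol probe sets in 8 and above it in 2, and lower calls outnumbered higher calls in all 10 bins for both annotations.

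In the brightest bin (610 to 17940) 2 of 296 members passed 2-fold as higher and 9 as lower. The shares were 0.68% and 3.04% of members, against 0.66% and 1.01% of the 4663 single-symbol probe sets. The SD was 0.40 for members and 0.36 for single-symbol probe sets. These shares rest on 11 members.

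**Figure D2:**
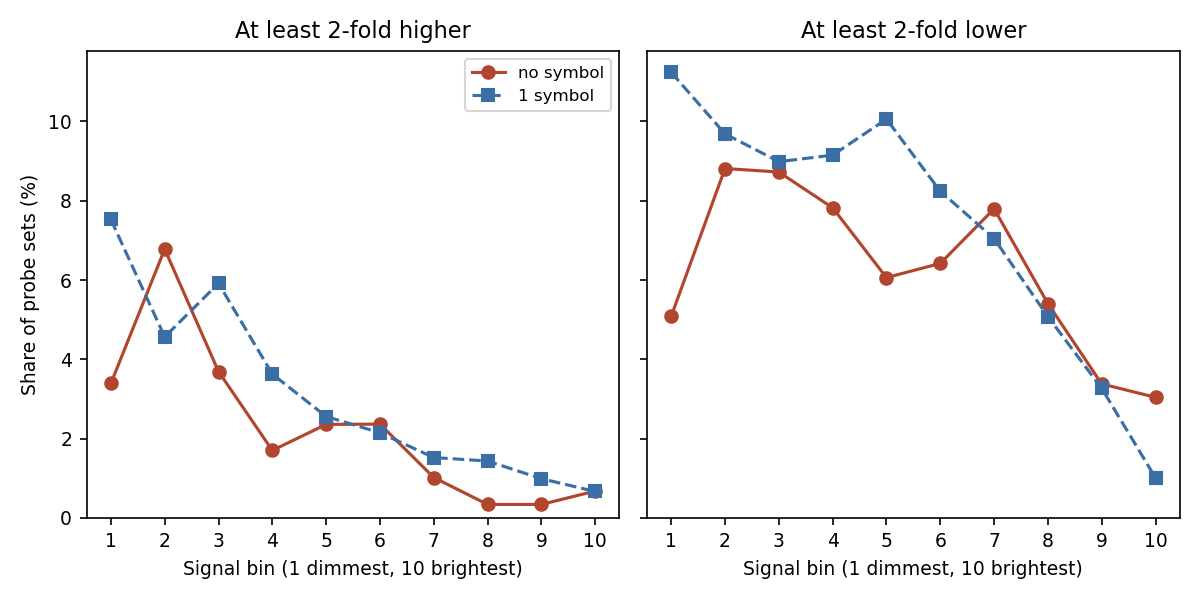
Share of probe sets at least 2-fold higher (left) or lower (right) with FGF-AS siRNA, in percent, in 10 bins of mean signal from dimmest to brightest. Circles are members without a gene symbol, with 294 to 298 per bin, and squares are single-symbol probe sets. Both fall toward the bright bins, and the largest gap is in bin 1, at 5.08% against 11.2% lower.

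The only spread that these arrays hold is the disagreement between probe sets of 1 gene. Its SD on the log2 ratio, pooled over genes with at least 2 probe sets at or above the minimum, was 0.49 (6155 genes). Above a stricter minimum of 145, the 75th percentile of mean signal, it was 0.36 (3050 genes), and for dimmer probe sets it was 0.58 (2365 genes). A 2-fold difference, 1 on this scale, is thus less than 2 such SDs for a dim probe set. This SD covers neither differences between cultures nor between hybridisations. Of the 252 members past 2-fold, 224 lay below the stricter minimum.

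Many ratios of dim members rested on 1 array that read very low. Of the 67 higher members, 51 read under the minimum of 23.9 with control siRNA, and 6 read under the offset. Of the 185 lower members, 108 read under the minimum with FGF-AS siRNA, and 5 under the offset. The remaining 16 higher and 77 lower members read above the minimum on both arrays. The extremes over all members came from this end of the range. The highest ratios were those of 222282_at (4.2 to 64.2, log2 ratio 2.77) and 204936_at (2.6 to 53, 2.76). They were followed by 216822_x_at (9.7 to 84.2), 229219_s_at (10.8 to 82.1) and 1565715_at (5.9 to 51.1). The lowest was 1560098_at (71.2 to 0.5, log2 ratio -3.55). Its ratio moved between -4.39 and -2.72 with the offset. After it came 1558019_at (97.4 to 7.3, -2.95), 229525_at (54.4 to 3), 230605_at (93.3 to 9.3) and 216875_x_at (58.4 to 4). For all 10 the lower array read at most 10.8. No detection calls were used here, so whether such signals exceed background was not tested.

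At the stricter minimum of 145, ratios varied less and lay nearer to 0, with a median log2 ratio of -0.03 and 44.9% of members above 0. Of 749 members there, 3 passed 2-fold as higher (0.40%) and 25 as lower (3.34%). Over all 13655 probe sets of that brightness these shares were 0.901% and 2.55%, 3.45% together. Single-symbol probe sets weighted to the same signal had 0.99% higher and 2.59% lower. In all, 3.74% of members and 3.57% of single-symbol probe sets passed 2-fold, with an SD of 0.44 and 0.43. The total was therefore close to the background. The 28 calls were split 3 to 25. Over the other offsets and scalings tried it ran from 3 to 5 higher and from 23 to 26 lower. No test of this difference is possible with 1 array per group.

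The 3 bright members past 2-fold higher were 219347_at, 230748_at and 242775_at. Probe set 219347_at read 268.6 on the control and 871.9 on the FGF-AS siRNA array, a 3.20-fold difference (log2 ratio 1.68). It ranked 10th highest of the 13655 probe sets at the stricter minimum. Probe set 230748_at read 1640.4 and 3368.4, 2.05-fold higher. Probe set 242775_at read 1227.9 and 2482.2, 2.02-fold higher. The last 2 lay close to the threshold, with log2 ratios of 1.04 and 1.01.

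The next highest was 201660_at, which read 629.4 and 1262.3 and had a log2 ratio of 1.00, just under 2-fold after the offset. Its neighbour by identifier, 201661_s_at, read 687.2 and 1299.6 (0.91). Among the rest of the 12 highest, 1555653_at was the brightest at 3630.5 and 6163.9 (0.76). The others, from 238704_at (0.92) through 207827_x_at, 226785_at, 1555735_a_at and 226617_at to 209506_s_at (0.75), had signals of 107.4 to 1472.5.

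The lowest bright member was 229733_s_at. Its signal was 1158.1 on the control and 210.7 on the FGF-AS siRNA array, a 5.37-fold difference (log2 ratio -2.42). It ranked 9th lowest of the 13655 probe sets. Probe set 244187_at read 1145 and 297.8, 3.79-fold lower (-1.92), the 29th lowest. Probe set 1558015_s_at read 844.7 and 258.1, 3.22-fold lower (-1.69). All 3 read above the stricter minimum on both arrays, and the ratio of 229733_s_at stayed between -2.44 and -2.37 over the other offsets and scalings.

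Further down, 1557100_s_at read 450.2 and 141.1 (-1.63) and 231576_at read 361 and 115.4 (-1.60). Probe set 201236_s_at read 498.2 and 161.4 (-1.59). The brightest on the control array after 229733_s_at and 244187_at was 1554390_s_at, with 1010.2 and 375.9 (-1.41). The remaining 5 of the 12 lowest were 1558680_s_at, 204716_at, 209136_s_at, 200727_s_at and 228251_at, at log2 ratios from -1.42 to -1.23. All 12 stayed past 2-fold under each of the 5 other offsets and scalings tried. They were picked as the lowest of 749, so their size is a description. Of the 12 lowest, 8 carried the suffix _s_at and 4 had identifiers of 7 digits. Among all 749 members at the stricter minimum, 284 carried _s_at and 30 had 7 digits.

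**Figure D3:**
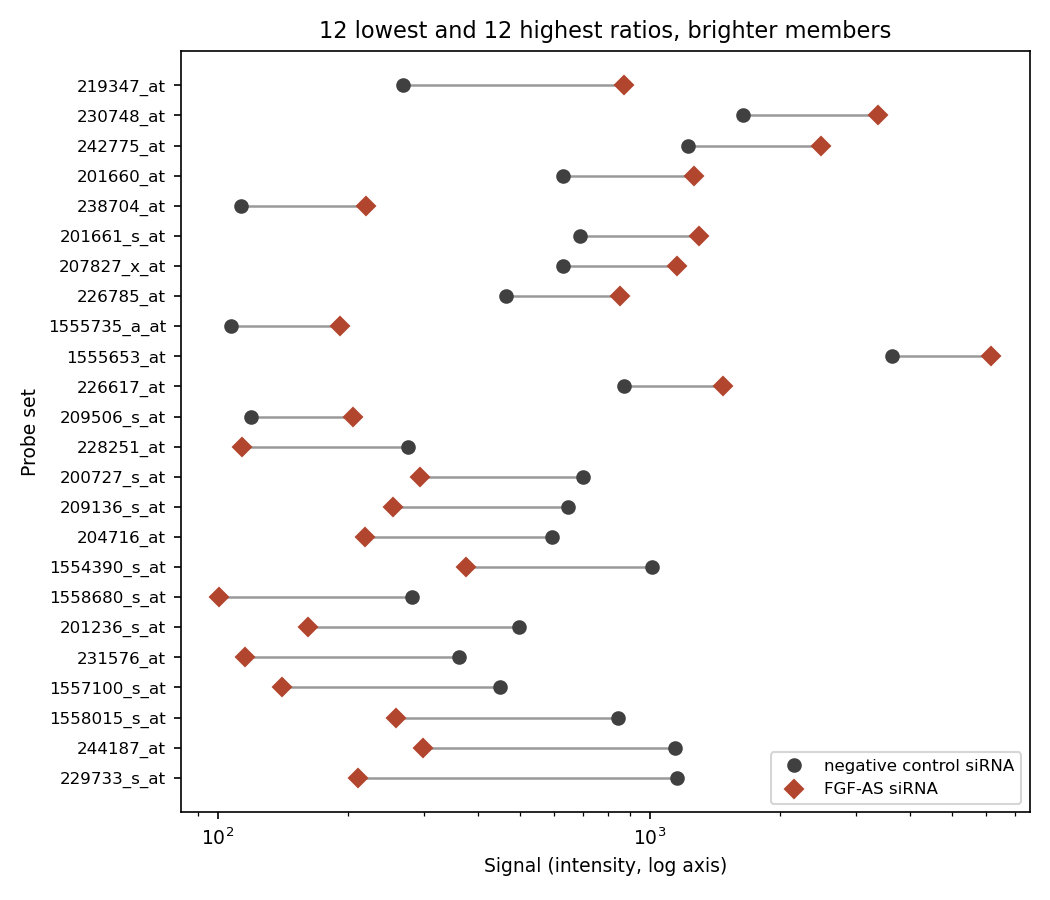
Signal of each array (horizontal log axis, intensity) for the 12 lowest and 12 highest log2 ratios among the 749 members at the stricter minimum. Circles are negative control siRNA and diamonds FGF-AS siRNA, 1 array each. The gap is widest for 229733_s_at, 1158.1 against 210.7, while among the higher members 219347_at alone exceeds 3-fold.

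The suffix of an identifier tells how specific its probes are by design. Probe sets ending in _at are meant to match 1 transcript, _a_at alternative transcripts of 1 gene, _s_at several transcripts, and _x_at include probes that may also match unrelated sequences. Among members 2125 (71.8%) ended in _at, 447 (15.1%) in _s_at, 334 (11.3%) in _x_at and 51 (1.72%) in _a_at. Among the expressed single-symbol probe sets the shares were 58.0%, 30.8%, 8.59% and 2.44%. Members ending in _s_at were the brightest, with a median signal of 258, and those ending in _at had a median of 43.7.

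Among the _s_at members 3 passed 2-fold as higher and 33 as lower. Single-symbol _s_at probe sets of equal signal had 1.62% higher and 6.24% lower, against 0.67% and 7.38% of these members. Among the _at members 50 were higher and 126 lower (2.35% and 5.93%, against 3.44% and 6.74% at equal signal). Among the _x_at members 12 were higher and 21 lower (3.59% and 6.29%, against 2.90% and 7.40%). Among the 51 _a_at members 2 were higher and 5 lower (3.92% and 9.80%, against 2.01% and 14.7%), with a median log2 ratio of -0.03 against -0.28. Lower calls were the more frequent in every class, as they were among single-symbol probe sets.

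Members were unevenly distributed over the identifier series. Probe sets lacked a symbol in 6.33% of cases among identifiers of 6 digits below 210000, and in 12.4% between 210000 and 220000. The share was 8.34% between 220000 and 230000, 40.5% for the 6-digit identifiers above, and 30.4% for identifiers of 7 digits. The last 2 series held 1279 and 448 members, 58.4% of all. Their median signals were low, at 38.8 and 36.0, whereas the 377 members below 210000 had a median of 368 and included 278 of the 749 bright ones. The series from 210000 to 220000 held 442 members, 195 of them bright, with a median of 110. The series from 220000 to 230000 held 403, 158 of them bright, with a median of 96.5. The members' median signal thus fell step by step from low to high identifier numbers. The annotation used here lists only probe sets that have a symbol. A member whose gene is missing from it and a member that matches no gene therefore cannot be told apart. This holds for bright members as for dim ones.

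The share past 2-fold was larger in the dimmer series. It was 4.78% for members below 210000, 4.98% for the next series, 7.94% between 220000 and 230000, 9.77% above that and 12.3% for identifiers of 7 digits. Single-symbol probe sets of the same series, at equal signal, had 5.38%, 9.21%, 7.47%, 12.1% and 12.7%. Members lay below them in 4 series and above them in 1. In that series, between 220000 and 230000, 5 members passed 2-fold as higher and 27 as lower (1.24% and 6.70%, against 2.81% and 4.65%). Members with identifiers of 7 digits had 14 higher and 41 lower.

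**Figure D4:**
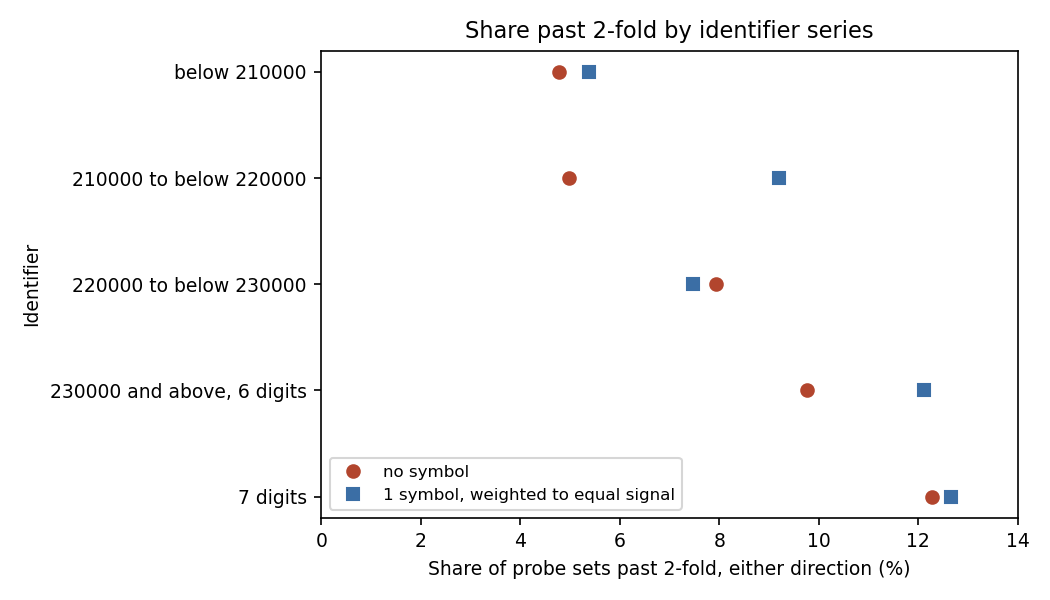
Share of probe sets past 2-fold in either direction (horizontal axis, percent) in 5 identifier series. Circles are members without a gene symbol, and squares are single-symbol probe sets of the same series weighted to the members' signal. The members' share goes from 4.78% in the lowest series to 12.3% in the series of 7 digits.

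Members with consecutive identifiers were compared as pairs. Among expressed single-symbol probe sets with consecutive numbers, 15.3% of 13817 pairs carried the same symbol, so a consecutive number alone does not mark a shared transcript. Of 328 member pairs, 173 (52.7%) had ratios of 1 sign, against 65.7% of 2113 pairs of 1 named gene and 50.9% of 11704 pairs of different named genes. Both members of a pair passed 2-fold in 3 cases (0.915%), as did both probe sets in 1.89% of pairs of 1 named gene and 0.419% of pairs of different named genes. These groups of pairs were not matched for signal. Taken singly, 8.52% of members (median signal 51.0) and 7.27% of expressed single-symbol probe sets (162) passed 2-fold. Whether the member pairs differ from unrelated members of their signal was not tested. Probe sets 201235_s_at (243.4 to 37.5, log2 ratio -2.52) and 201236_s_at (498.2 to 161.4, -1.59) were both lower. Probe sets 236124_at (76.5 to 26.2) and 236125_at (88.7 to 28.4) were also both lower, with log2 ratios of -1.35 and -1.46. The third pair went opposite ways, with 240276_at at 11.1 and 44 and 240277_at at 292.6 and 124.2. The pair of 201660_at and 201661_s_at, both higher, was chosen after the values were seen.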

How the data were processed

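RNA of 2 Seg-1 cultures was measured on 1 array each, and groups follow the siRNA named in the labels. Each deposited value is a linear intensity that the authors obtained for 1 probe set. GCOS and MAS5 are named in the submitters' processing notes without version, role or scaling target. MAS5 combines the probes of a set, and how the authors scaled the arrays to each other stays unknown. Median signals were 25.5 (control) and 23.1 (FGF-AS siRNA). Detection calls and probe-level intensities were not used here, and the number of arrays limits the precision.

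Symbols came from the platform annotation: of 54613 non-control probe sets, 41091 had 1 symbol, 1801 several and 11721 none. The 62 AFFX controls and probe sets with several symbols were left out of the comparison of annotations. An offset of 6.1 was added to both signals before the log2 ratio of FGF-AS siRNA over control was taken, with no further scaling. Single-symbol probe sets were weighted to the members' signal over 10 bins. Weights were computed with numpy 2.4.6 and pandas 2.3.3 in Python 3.11.15, and loess (span 0.3) with statsmodels 0.14.6. The weighting was tried on simulated ratios whose spread depended on signal alone, the same for both annotations. That trial checks the computation only and not whether members differ from single-symbol probe sets. Alternatives were the offset (3.05 and 12.2), median centring, quantile normalization, loess, the signal minimum (145 or none), leaving out _s_at and _x_at probe sets, 5 or 20 bins, and the brightest probe set of each gene.

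Named were the 10 brightest members, the 12 highest and 12 lowest ratios at the stricter minimum, the 5 highest and 5 lowest of all, and the 3 probe sets on each side of the minimum. Pairs past 2-fold, the identifier series and the scalings at the stricter minimum were added after values were seen. Members and lists were chosen with earlier results of these data known.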

Additional observations from a re-analysis of the deposited data

How the results depend on the processing

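No paired analysis was possible because each group holds 1 array. No alternative leaves out a replicate for the same reason. At the stricter minimum 3 members were higher and 25 lower, 3.74% past 2-fold against 3.57% of single-symbol probe sets, with SDs of 0.44 and 0.43 and 44.9% and 45.4% above 0. With no minimum 838 were higher and 1214 lower, 17.5% against 18.5%, with SDs of 0.72 and 0.73 and 44.7% and 45.1% above 0. The smaller offset gave 10.3% past 2-fold against 12.3%. The larger one gave 6.25% against 7.80%, with SDs of 0.52 and 0.56. Median centring moved all log2 ratios by 0.06. Past 2-fold it left 8.32% of members and 10.04% of single-symbol probe sets, and above 0 it left 47.4% and 47.2%. Under quantile normalization these 4 shares were 8.11%, 9.73%, 52.2% and 51.3%, and the medians turned to 0.0256 and 0.0145. Under loess they were 8.18%, 9.83%, 50.5% and 49.7%, and the members' median turned to 0.00673. With the brightest probe set of each gene, 8.61% of single-symbol probe sets passed 2-fold and 46.8% were above 0. Leaving out _s_at and _x_at probe sets or changing the number of bins kept every summary value within its tolerance (counts within 1.5 times, shares within their 95% binomial interval, SDs within 10%). Of 235 ratios of named members recomputed under other offsets and scalings, 231 moved by less than the SD between probe sets of 1 gene. The others were dim: 204936_at, 1560098_at and 229525_at. At the stricter minimum, quantile normalization and loess each gave 5 higher members.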
